A study of Mus musculus with 16 samples.

Results

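The 44 genes described here encode proteins of the cytosolic ribosome, 25 of its large subunit (Rpl3 to Rplp2) and 19 of its small subunit (Rps2 to Rpsa). They were chosen by name: a row of the gene table belonged to the set when its Ensembl mouse gene identifier mapped to 1 of the 44 symbols, and pseudogenes were left out. All 44 were found among the 30153 genes of the table, and all 44 passed the filter on low values, which kept 11415 genes. Polyadenylated RNA of mouse heart tissue was sequenced in 16 libraries. Hap-I mice that were aged and fed a western diet gave 5 libraries, aged ones with no diet in their labels gave 4, adult ones fed a western diet gave 4, and adult C57 mice gave 3. All are labelled C57/BL6. In Hap-I mice the transgene is the human receptor for angiotensin II (AGTR1, type 1) in its haplotype I, and this receptor raises blood pressure and drives cardiac growth. Its promoter, and the animals' sex, age in months, litter and batch, are not given in the sources used here. The series text names the adult Hap-I group without a diet, whereas its 4 sample labels state a western diet; the sample labels are followed here, and the diet of that group is uncertain. The series text gives 3 to 5 animals per group and does not say which library is which animal, so the p-values measure the spread between these libraries.

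A ribosome is built from ribosomal RNA and about equal amounts of each ribosomal protein, and the nucleolus assembles the subunits. The messenger RNAs of nearly all ribosomal proteins begin with a cytosine and a run of pyrimidines, the 5′ terminal oligopyrimidine (TOP) tract, through which mTORC1 and the binding protein Larp1 set how strongly they are translated. In heart muscle, protein synthesis through this machinery rises in hypertrophic growth. Ribosomal protein genes have also left many processed copies across the mammalian genome.

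The annotated start of some of the genes shows the TOP tract in the letters, and the few windows printed were chosen mainly for a clear tract. Each runs from 40 bases before to 20 bases from the start site in RefSeq's annotation of GRCm38.p6, 5′ to 3′ on the gene's strand, with the letters CTTTC in capitals. Rpl35 lies at chr2:39005112-39005171 on the minus strand, Rpl28 at chr7:4792925-4792984 on the plus strand, Rps27 at chr3:90213629-90213688 on the minus strand, Rpl38 at chr11:114668540-114668599 on the plus strand, Rplp2 at chr7:141447611-141447670 on the plus strand, and Rps6 at chr4:86857348-86857407 on the minus strand.
Rpl35: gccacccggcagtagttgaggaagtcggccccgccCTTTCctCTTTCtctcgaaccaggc
Rpl28: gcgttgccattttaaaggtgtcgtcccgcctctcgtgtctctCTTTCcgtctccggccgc
Rps27: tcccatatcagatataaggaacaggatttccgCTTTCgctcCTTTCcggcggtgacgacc
Rpl38: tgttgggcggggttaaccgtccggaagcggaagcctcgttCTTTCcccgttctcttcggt
Rplp2: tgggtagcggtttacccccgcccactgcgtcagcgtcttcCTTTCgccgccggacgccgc
Rps6: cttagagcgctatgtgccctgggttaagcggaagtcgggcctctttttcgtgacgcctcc
Rps6 has a pyrimidine run at the start without these 5 letters. The same window of Rpl10, not printed, holds neither these letters nor a pyrimidine run at its annotated start. Of the 44 genes, 36 had a promoter in the table used. CTTTC on the coding strand, within 30 bases before to 50 after the start, was found in 16 of these 36 genes (44.4%), against 3196 of 27025 genes with a promoter (11.8%). The letters CGGAAG, the core that ETS-family factors bind, were found on either strand of the 300 bases in 24 of the 36 (66.7%), against 5075 of 27025 (18.8%). A match describes the letters only.

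Ribosomal protein messages were abundant in every heart. Levels are in TPM, which corrects for transcript length, divided by a size factor per library; these are called scaled TPM below. Means over the 16 libraries ranged from 4.398 to 844.6 scaled TPM with a median of 272.3. Of the 44 genes, 7 averaged 500 scaled TPM or more, 31 lay between 100 and 500, 3 between 20 and 100, and 3 under 20. Together they held 1.08% to 1.73% of the deposited TPM of a library, and 1.98% to 2.72% of its TPM outside mitochondrially encoded transcripts.

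**Figure D1:**
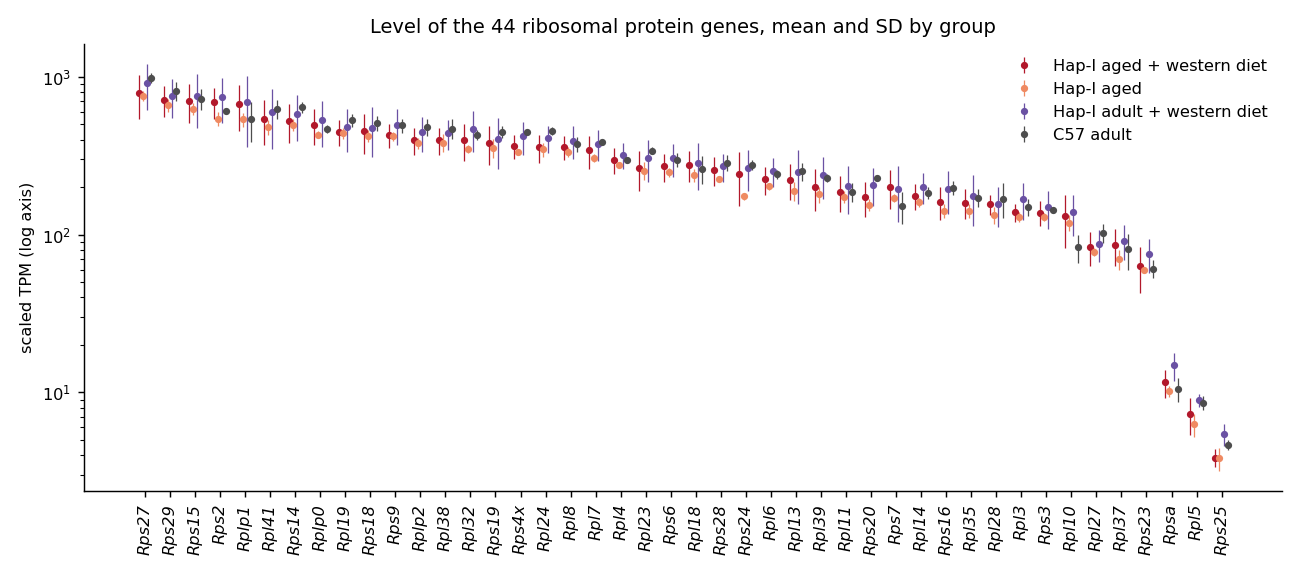
Level of each of the 44 ribosomal protein genes in scaled TPM on a log axis, ordered by the mean over 16 libraries; points are group means and bars are SD (n = 5 aged Hap-I on western diet, 4 aged Hap-I, 4 adult Hap-I on western diet, 3 adult C57). Most genes lie between 100 and 500, and Rpsa, Rpl5 and Rps25 lie under 20.

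The most abundant messages were those of small-subunit proteins. Rps27, a zinc-binding protein of the small subunit, averaged 784.9 ± 247.6 scaled TPM in aged Hap-I hearts on western diet, 752.6 ± 55.9 in aged Hap-I hearts, 908.0 ± 290.4 in adult Hap-I hearts on western diet and 982.0 ± 71.2 in C57 hearts (SD, n = 5, 4, 4 and 3). Rps29 and Rps15 followed with means of 728.7 and 701.4 scaled TPM over all 16 libraries. At the other end stood Rpsa, the laminin receptor precursor that is also a small-subunit protein, at 11.9 scaled TPM, Rpl5, which carries the 5S ribosomal RNA into the large subunit, at 7.71, and Rps25 at 4.398. The proteins of the stalk, which recruits the elongation factors, were unequal in message: the mean scaled TPM was 615.4 for Rplp1, 483.2 for Rplp0 and 419.6 for Rplp2. Rpl41, the smallest ribosomal protein, averaged 553.7 scaled TPM, Rps4x 386.4, Rpl3 145.8, and Rps6, the substrate of the S6 kinases, 278.5.

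How a level is read depends on copies. kallisto, which the submitters name, matches 31-base words and divides reads that fit several transcripts by an estimate. For 36 of the 44 genes the table holds copies, defined as genes at least 50% of whose words lie in the member; there are 103 of them, 97 annotated as pseudogenes. Copies held at least 10 TPM for 13 members, and more TPM than the member itself for 5. Rpl5 had a mean of 7.64 TPM as deposited, while its copy Gm15500 on chromosome 7 had 385.5, so the member held 1.94% of the pair's total with the other copies. Likewise Rps23 averaged 63.7 TPM as deposited beside 436.1 for Rps23-ps1, Rpl28 151.4 beside 313.2 for Rpl28-ps1, and Rpl10 119.3 beside 363.4 for Rpl10-ps3. Rpl27 averaged 85.8 TPM beside 305.1 for its copies. Copies of Rpsa and Rps25 held only 0.863 and 0.0888 TPM, so their low values have no such counterpart among the copies defined here. Rpsa shares 31.2% and Rps25 38.8% of its words with other genes, and the part this plays was not tested.

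The sequences show why these pairs cannot be separated over most of the length of the copy. The first 90 coding bases are printed from the GRCm38 transcripts (GENCODE vM21), with bases that differ within a pair in capitals. Rpl10 lies on chrX:74270812-74273135 (plus strand) and Rpl10-ps3 on chr9:50344201-50344968 (minus strand); Rps7 lies on chr12:28630854-28635953 (minus strand) and Gm6472 on chrX:152909505-152910155 (minus strand).
Rpl10: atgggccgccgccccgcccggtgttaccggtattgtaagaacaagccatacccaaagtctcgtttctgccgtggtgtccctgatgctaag
Rpl10-ps3: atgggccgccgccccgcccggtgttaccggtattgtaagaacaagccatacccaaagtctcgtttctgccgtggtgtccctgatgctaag
Rps7: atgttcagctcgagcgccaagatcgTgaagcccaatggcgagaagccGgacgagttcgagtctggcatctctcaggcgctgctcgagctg
Gm6472: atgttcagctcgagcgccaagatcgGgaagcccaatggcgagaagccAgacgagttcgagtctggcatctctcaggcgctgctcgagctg
The Rpl10 transcript compared has 799 bases and is identical to Rpl10-ps3 from base 60 to base 799, with 0 mismatches over 740 bases. Rpl5 and Gm15500 are identical over all 894 bases of the copy, which match bases 143 to 1036 of an Rpl5 transcript of 2045 bases. Rps7 and Gm6472 differ at 4 of 651 aligned bases, the substitutions G86A, T133G, G155A and G230T, counted from 1 at the 5′ end of the Rps7 transcript with the Rps7 base first.

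The members moved together from library to library, and this spread was larger than most differences between groups. On scaled TPM, the median of the 44 log2 deviations from each gene's 16-library mean ran from -0.34 in replicate 4 of the adult Hap-I group on western diet to 0.62 in replicate 2 of the same group. All 44 members stood above their own mean in that replicate 2 and in replicate 2 of the aged Hap-I group on western diet, and 0 of 44 did in replicate 1 of the aged Hap-I group on western diet. In aged Hap-I hearts on western diet the 5 medians were -0.32, 0.33, -0.29, 0.30 and -0.18, in aged Hap-I hearts -0.11, -0.02, -0.24 and -0.19, in adult Hap-I hearts on western diet 0.06, 0.62, 0.12 and -0.34, and in C57 hearts 0.18, -0.02 and 0.23. The groups overlapped: the 2 western diet groups spanned the whole range, and the aged Hap-I libraries lay close to each other. Over the 946 pairs of members, the median Pearson r across the 16 libraries was 0.864 (range -0.061 to 0.993), a description of points that share library and scaling. For 28 members r with the median of the other members was at least 0.9; the lowest were Rpl10 (0.549), Rpl5 (0.567), Rps25 (0.586) and Rpsa (0.615).

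**Figure D2:**
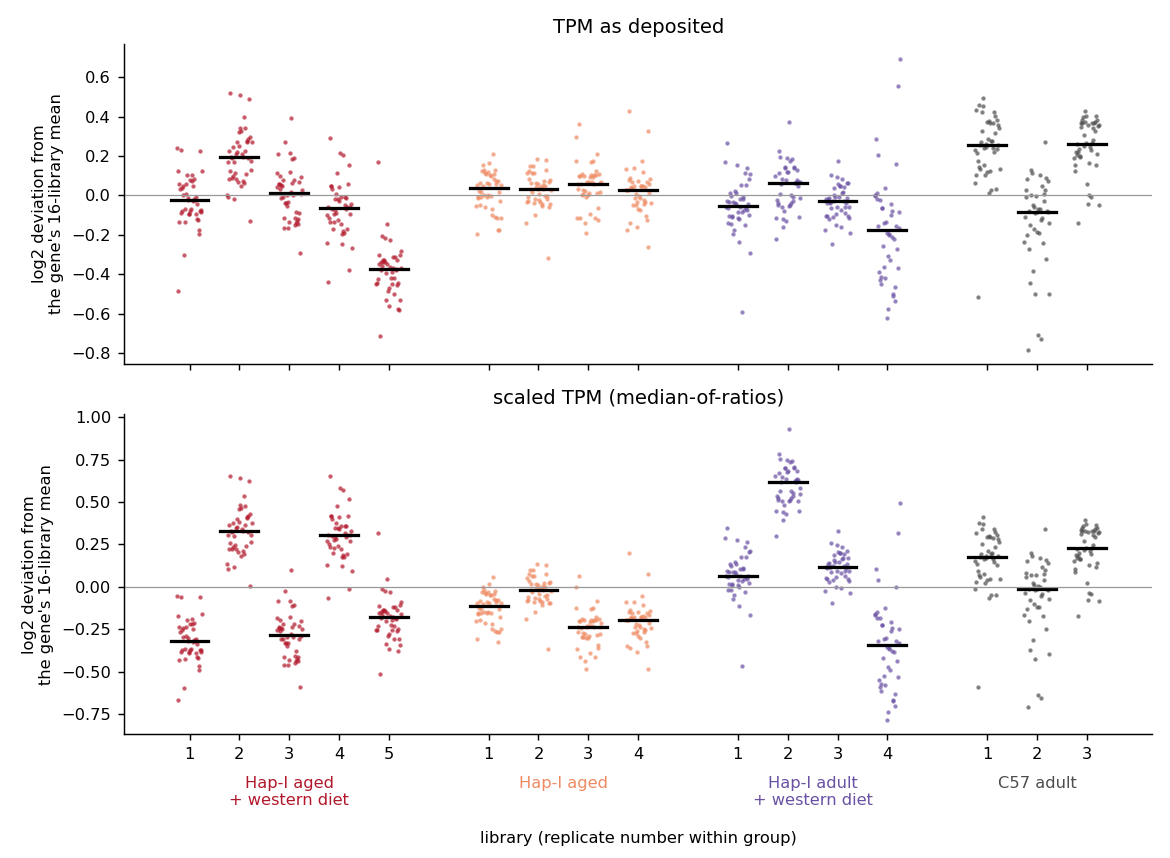
Log2 deviation of each of the 44 members (points) from its own 16-library mean in every library, with the library's median as a black bar; the upper panel uses TPM as deposited and the lower panel scaled TPM. On scaled TPM the medians run from -0.34 to 0.62, and on deposited TPM from -0.37 to 0.26, with other libraries at the ends.

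The order of the libraries depended on the scale. On TPM as deposited, the highest medians were 0.26 in C57 replicates 1 and 3 and 0.20 in replicate 2 of the aged Hap-I group on western diet, and the lowest was -0.37 in replicate 5 of that group. The within-group SD of a member, pooled over the groups, had a median of 0.302 on the log2 scale of scaled TPM, 0.196 on deposited TPM and 0.182 on TPM per fixed sum of nuclear transcripts, against a median of 0.186 over all 11415 genes kept on scaled TPM. The size factor was 0.678 in replicate 2 of the adult Hap-I group on western diet, where the members were highest, and ranged up to 1.23. The share of mitochondrially encoded transcripts was 46.1% in that library. In the aged Hap-I group on western diet it was 45.9% in replicate 5, where the members' median was -0.18, and 43.4% in replicate 4, where the median was 0.30. The share was lowest, 31.1%, in C57 replicate 3, where the median was 0.23. It was 34.6% to 36.5% in aged Hap-I hearts, whose medians were all negative. Whether the share goes with the members' level was not tested. The rank correlation, across genes, of a gene's deviation with its transcript length ranged from -0.25 in replicate 2 of the adult Hap-I group on western diet to 0.31 in replicate 1 of the aged Hap-I group on western diet, where 0 of 44 members stood above their mean. The members are short: their median transcript length was 636 bases (368 to 1000), against 1312 over the genes kept. Y-linked transcripts were absent in 5 libraries, 3 of aged Hap-I hearts on western diet and 2 of adult Hap-I hearts on western diet, and the summed level of 6 atrial markers ranged from 86.2 to 199.1, 97.2 to 5123, 33.9 to 1173 and 230.2 to 6779 scaled TPM in aged Hap-I hearts on western diet, aged Hap-I hearts, adult Hap-I hearts on western diet and C57 hearts, with no marker at 0 in every library. Ventricular markers were high in all libraries (summed 45490 to 64140 scaled TPM). In bulk RNA, fewer cells of a type and less RNA per cell cannot be told apart.

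Tests used limma on log2(scaled TPM + 1) with 1 mean per group, and p-values were adjusted by Benjamini-Hochberg over the 11415 genes of each comparison; calls were made where the adjusted p was under 0.05. In none of the 7 comparisons was any of the 44 members called. The replicate spread gave a member's log2 fold change a median standard error of 0.18 to 0.21. The comparisons with C57 hearts share the same 3 C57 libraries.

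The first comparison sets aged Hap-I hearts with and without the western diet side by side. All 44 members had a positive log2 fold change for aged Hap-I hearts on western diet against aged Hap-I hearts, from 0.0070 (Rpl19) to 0.39 (Rps24), with a median of 0.11 beside 0.0027 over all genes kept; medians were 0.11 for both subunits. limma called 0 of 44 members, and 0.166% of all genes. At an unadjusted p under 0.05 it found 0 of 44 members and 15.9% of all genes. Rps24, a small-subunit protein whose message is alternatively spliced, had 161.8, 350.7, 194.0, 326.5 and 174.6 scaled TPM in aged Hap-I hearts on western diet, against 181.5, 176.3, 177.0 and 162.2 in aged Hap-I hearts. Replicates 2 and 4 on western diet were high and the other 3 lay with the aged Hap-I libraries (log2 fold change 0.39, SE 0.23, adjusted p = 0.431 by limma). Rps2, a core small-subunit protein, had 543.9, 875.8, 678.6, 813.6 and 541.7 scaled TPM on western diet, against 571.0, 598.4, 483.2 and 515.1 without it. The groups overlapped (0.33, SE 0.19, adjusted p = 0.422 by limma). On unscaled TPM the median was -0.09 for the members and -0.16 for all genes, so that the members stood 0.066 above all genes. Other values moved with this comparison: Y-linked transcripts were absent in 3 of 5 libraries on western diet and in 0 of 4 without it. Log2 fold changes were positive for 5 of 5 red cell markers (median 0.88, 0 called) and for 0 of 6 atrial markers (median -2.4, 0 called). They were also positive for 0 of 6 fibroblast (median -0.38) and 0 of 3 adipocyte markers kept (median -0.60), with 0 called. Of 5 smooth muscle and pericyte markers kept, 2 had a positive log2 fold change (median -0.75). The smooth muscle gene Myh11 was called lower (-1.02, adjusted p = 0.0311 by limma), and the 4 others were not called. The part of these values in the result was not tested.

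The second comparison sets aged against adult Hap-I hearts, both on western diet. Of the 44 members, 41 had a negative and 3 a positive log2 fold change, with a median of -0.12 beside -0.0057 over all genes; it was -0.12 for the large and -0.16 for the small subunit. limma called 0 of 44 members and 2.39% of all genes; 2 members and 19.7% of all genes had an unadjusted p under 0.05. Rps25, a small-subunit protein, was closest to the threshold. It had 4.11, 4.34, 3.31, 4.28 and 3.30 scaled TPM in aged Hap-I hearts on western diet, against 4.57, 6.57, 5.01 and 5.65 in adult Hap-I hearts on western diet, and all aged values lay below all adult values. The log2 fold change was -0.40 (95% interval -0.64 to -0.17, adjusted p = 0.062 by limma); without replicate 4 of the aged group on western diet it was -0.43 with an adjusted p of 0.0469. Rpsa had 10.3, 15.4, 9.62, 12.4 and 10.3 scaled TPM in aged hearts, against 13.6, 17.9, 11.3 and 16.7 in adult hearts, with overlap (-0.33, SE 0.15, adjusted p = 0.218 by limma). On unscaled TPM the median was 0.02 for the members and 0.11 for all genes, so the members stood lower than all genes there too. Relative to the median of all genes they stood higher by 0.025 after quantile normalization and by 0.095 without the 2 libraries at the ends of the length trend.

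Aged Hap-I hearts without the diet label differed from adult Hap-I hearts on western diet in both age and diet, which cannot be told apart. Some of the adult libraries and none of the aged ones lacked Y-linked transcripts, and the part of this was not tested. All 44 members had a negative log2 fold change, from -0.55 (Rps24) to -0.07 (Rpl19), with a median of -0.23 beside -0.00019 over all genes, and of -0.23 for both subunits. limma called 0 of 44 members and 2.14% of all genes; 5 members (11.4%) had an unadjusted p under 0.05, as did 21.5% of all genes. Rpsa had 9.63, 11.4, 9.87 and 9.67 scaled TPM in aged Hap-I hearts, against 13.6, 17.9, 11.3 and 16.7 in adult Hap-I hearts on western diet. Replicate 2 of the aged group lay just above the lowest adult value (-0.49, SE 0.15, adjusted p = 0.0955 by limma). Rps25 had 3.44, 4.00, 3.21 and 4.63 scaled TPM in aged Hap-I hearts, against 4.57, 6.57, 5.01 and 5.65 in adult Hap-I hearts on western diet, and the groups touched at 1 library (-0.42, SE 0.12, adjusted p = 0.0704 by limma). Without replicate 1 of the aged group on western diet, Rpl5 was called (-0.46, adjusted p = 0.0496 by limma). That library enters this comparison only through the shared spread and the size factors. On unscaled TPM the median of the members was 0.12 and that of all genes 0.27, and on TPM per fixed sum of nuclear transcripts -0.01 and 0.17, so that the members stood below all genes on both.

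Aged Hap-I hearts against adult C57 hearts differ in genotype and age together. Here 41 members had a negative and 3 a positive log2 fold change, with a median of -0.27 beside -0.0069 over all genes, the same for both subunits. limma called 0 of 44 members and 11.2% of all genes; 6 members (13.6%) and 27.9% of all genes had an unadjusted p under 0.05. Rps24 had 181.5, 176.3, 177.0 and 162.2 scaled TPM in aged Hap-I hearts, against 281.4, 253.7 and 293.5 in C57 hearts. The groups did not overlap, but the spread shared with the 2 other groups was wide (-0.66, SE 0.26, adjusted p = 0.117 by limma). Rps20, a protein of the small-subunit head, had 151.5, 173.3, 149.2 and 142.7 scaled TPM in aged Hap-I hearts, against 228.2, 230.4 and 223.2 in C57 hearts, again without overlap (-0.56, SE 0.20, adjusted p = 0.0855 by limma). Rps4x, the X-linked small-subunit protein, had 320.1, 354.0, 332.3 and 337.0 scaled TPM against 466.3, 429.3 and 440.6 (-0.41, SE 0.16, adjusted p = 0.123 by limma). When only these 7 libraries were fitted, with their own smaller spread, limma called 17 of 44 members and 21.4% of all genes; of the members 16 were lower in aged Hap-I hearts and Rpl10 was higher, and among those lower were Rps24 (adjusted p = 0.00365), Rps20 (0.00529) and Rps4x (0.00843). Relative to the median of all genes, the median of the members was -0.23 on unscaled TPM and per fixed sum of nuclear transcripts, -0.16 with a length correction and -0.043 after quantile normalization. Without the 2 libraries at the ends of the length trend, limma called 1 of 44 members, Rps20 (-0.56, adjusted p = 0.045), and 12.3% of all genes.

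Adult Hap-I hearts on western diet and adult C57 hearts differ in genotype and, by the sample labels, diet together. Some of these Hap-I libraries and no C57 library lacked Y-linked transcripts, and the part of this was not tested. Here 21 members had a positive and 23 a negative log2 fold change, with a median of -0.01 beside 0.0078 over all genes. The median was 0.05 for the large and -0.07 for the small subunit. With each library left out in turn, the median of all members ran from -0.19 to 0.14. limma called 0 of 44 members and 3.45% of all genes; 2 members and 20.4% of all genes had an unadjusted p under 0.05. These were Rpl10 (0.71, SE 0.27, adjusted p = 0.149) and Rpsa (0.46, SE 0.17, adjusted p = 0.130). Rpsa had 13.6, 17.9, 11.3 and 16.7 scaled TPM in adult Hap-I hearts on western diet, against 12.0, 8.58 and 10.9 in C57 hearts, and replicate 3 of the Hap-I group lay among the C57 values. Rpl27 was the lowest in relative terms at -0.25 (SE 0.20), with 80.5, 111.9, 92.6 and 63.3 scaled TPM against 113.0, 86.1 and 106.9. On unscaled TPM the median was -0.20, where that of all genes was -0.13.

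Aged Hap-I hearts on western diet differ from adult C57 hearts in genotype, age and diet together. Y-linked transcripts were absent in some of these Hap-I libraries and in no C57 library. Summed atrial markers were 86.2 to 199.1 scaled TPM, against 230.2 to 6779 in C57 hearts. The part of these values was not tested. This comparison gave the most calls of the 6 pairs of groups over all genes, 21.9%, and limma called 0 of 44 members. An unadjusted p under 0.05 was found for 3 members (6.82%) and 35.5% of all genes. Of the members, 36 had a negative and 8 a positive log2 fold change, with a median of -0.19 beside -0.0014 over all genes, -0.13 for the large and -0.21 for the small subunit. Rpl24, which forms a bridge between the subunits, had 294.8, 411.9, 285.1, 446.2 and 345.6 scaled TPM in aged Hap-I hearts on western diet, against 451.9, 431.8 and 482.9 in C57 hearts. Only replicate 4 of the Hap-I group reached the C57 values (-0.37, SE 0.16, adjusted p = 0.111 by limma), and the call was made without that replicate (-0.46, adjusted p = 0.0454), on unscaled TPM (-0.41, adjusted p = 0.0272) and per fixed sum of nuclear transcripts (-0.30, adjusted p = 0.0228). Of all genes, 5.38% were called on unscaled TPM and 8.66% per fixed sum of nuclear transcripts. Rps20 had 136.1, 228.4, 136.4, 208.5 and 151.9 scaled TPM against 228.2, 230.4 and 223.2 (-0.43, SE 0.19, adjusted p = 0.123 by limma), and on unscaled TPM it was called, as was Rpl23. After quantile normalization 3 of 44 members and 19% of all genes were called; these members were Rpl10, Rps7 and Rps2, all higher in Hap-I hearts, and the median of the members was 0.06, which was 0.07 above that of all genes.

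The mean of the 3 Hap-I groups and C57 hearts differ in genotype, and also in age and diet. The libraries without Y-linked transcripts were all Hap-I, and the part of this was not tested. In this comparison 35 members had a negative and 9 a positive log2 fold change, with a median of -0.17 beside 0.0013 over all genes. limma called 0 of 44 members and 15.7% of all genes; 3 members and 31.3% of all genes had an unadjusted p under 0.05. Rpl10 was closest to the threshold at 0.60 (95% interval 0.12 to 1.08, adjusted p = 0.0797 by limma). It was called after quantile normalization (0.72, adjusted p = 0.0223 by limma), with a filter at 5 TPM (0.64, adjusted p = 0.0496), with a length correction (0.66, adjusted p = 0.0465) and per fixed sum of nuclear transcripts (0.66, adjusted p = 0.0448), where 13.4%, 18.3%, 15.2% and 5.23% of all genes were called. Rpl24 was called lower per fixed sum of nuclear transcripts (-0.26, adjusted p = 0.0311 by limma) and on unscaled TPM (-0.33, adjusted p = 0.0498), where 3.36% of all genes were called. The most negative were Rps20 (-0.39), Rpl23 (-0.34) and Rps24 (-0.34).

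**Figure D3:**
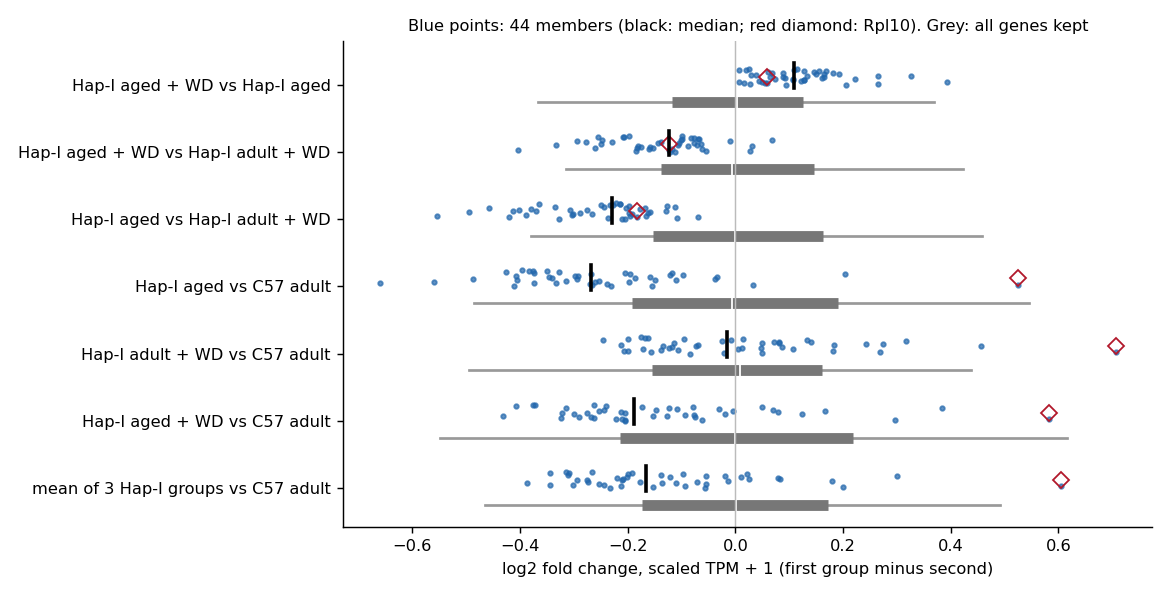
Log2 fold change (scaled TPM + 1, first group minus second) of the 44 members (blue points, black bar at their median, red diamond for Rpl10) in each of 7 comparisons, above all 11415 genes kept (grey line from the 5th to the 95th percentile, thick part from the 25th to the 75th, white mark at the median). Members lie to the right of 0 in 44 of 44 cases for aged Hap-I on western diet against aged Hap-I, and Rpl10 lies at the right end in each comparison with C57.

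Rpl10 had the most positive log2 fold change of the 44 members in each of the 4 comparisons with C57 hearts. Its protein, uL16, is among the last to join the large subunit before it becomes active. Rpl10 had 110.6, 182.2, 96.1, 182.2 and 80.6 scaled TPM in aged Hap-I hearts on western diet, 100.7, 121.6, 120.6 and 132.9 in aged Hap-I hearts, 116.8, 199.4, 118.1 and 118.8 in adult Hap-I hearts on western diet, and 76.5, 70.5 and 102.4 in C57 hearts. C57 replicate 3 lay above 3 Hap-I libraries, and the 2 others lay below all 13. To set each member against the rest, the libraries were rescaled so that the median deviation of the 44 members was 0 in each, a scale chosen after the data had been seen; it brought the median within-group SD of a member to 0.105. The log2 ratio of Rpl10 to the median of the other members was -1.13 ± 0.30, -1.03 ± 0.24, -1.14 ± 0.17 and -1.82 ± 0.18 in aged Hap-I hearts on western diet, aged Hap-I hearts, adult Hap-I hearts on western diet and C57 hearts (SD, n = 5, 4, 4 and 3). The 13 Hap-I values ran from -1.62 to -0.79 and the 3 C57 values from -1.94 to -1.62, so that the lowest Hap-I library met the highest C57 library.

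limma on this member scale called Rpl10 higher in aged Hap-I hearts than in C57 hearts (0.79, SE 0.18, adjusted p = 0.0313), in aged Hap-I hearts on western diet (0.74, SE 0.17, adjusted p = 0.0225) and in the mean of the 3 Hap-I groups (0.75, SE 0.15, adjusted p = 0.0151), but not in adult Hap-I hearts on western diet (0.72, SE 0.18, adjusted p = 0.119). All genes called on this scale were 1.87%, 4.52%, 2.3% and 0.228% in the same order. The only other member called on it was Rps7, in aged Hap-I hearts on western diet against C57 hearts (0.54, SE 0.15, adjusted p = 0.0445). The call in the mean of the 3 Hap-I groups was lost without C57 replicate 1 (0.68, adjusted p = 0.143) and without C57 replicate 2 (0.71, adjusted p = 0.0564). In aged Hap-I hearts it was lost without aged replicate 3 or 4 or any one C57 library, and in aged Hap-I hearts on western diet without replicate 1 of that group or any one C57 library.

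No difference was called in the sum of Rpl10 and its copies. Rpl10 held the smaller part of that sum, so a change in Rpl10 alone would move it little. The test of the sum, given below, could miss such a change. Rpl10-ps3 had 307.6, 422.9, 322.8, 387.5 and 347.3 scaled TPM in aged Hap-I hearts on western diet, 298.8, 317.5, 304.6 and 281.4 in aged Hap-I hearts, 408.3, 510.0, 364.1 and 328.2 in adult Hap-I hearts on western diet, and 431.3, 389.7 and 431.3 in C57 hearts. Rpl10 itself held 26.1% ± 5.33, 28.3% ± 2.85, 25.3% ± 2.55 and 16.5% ± 2.32 of the TPM of the gene and its copies in these groups (SD, n = 5, 4, 4 and 3). With copies added to their members, Rpl10 averaged 488.2 ± 91.9, 419.6 ± 16.6, 541.3 ± 116.8 and 500.8 ± 37.2 scaled TPM, and the mean of the 3 Hap-I groups differed from C57 by -0.07 (SE 0.14, 95% interval -0.36 to 0.22, adjusted p = 0.751 by limma). On the member scale with copies added, the difference was 0.10 (adjusted p = 0.578). The 2 transcripts are identical over 740 bases, part of which is printed above, and whether the reads or the estimate that splits them differed cannot be told apart.

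**Figure D4:**
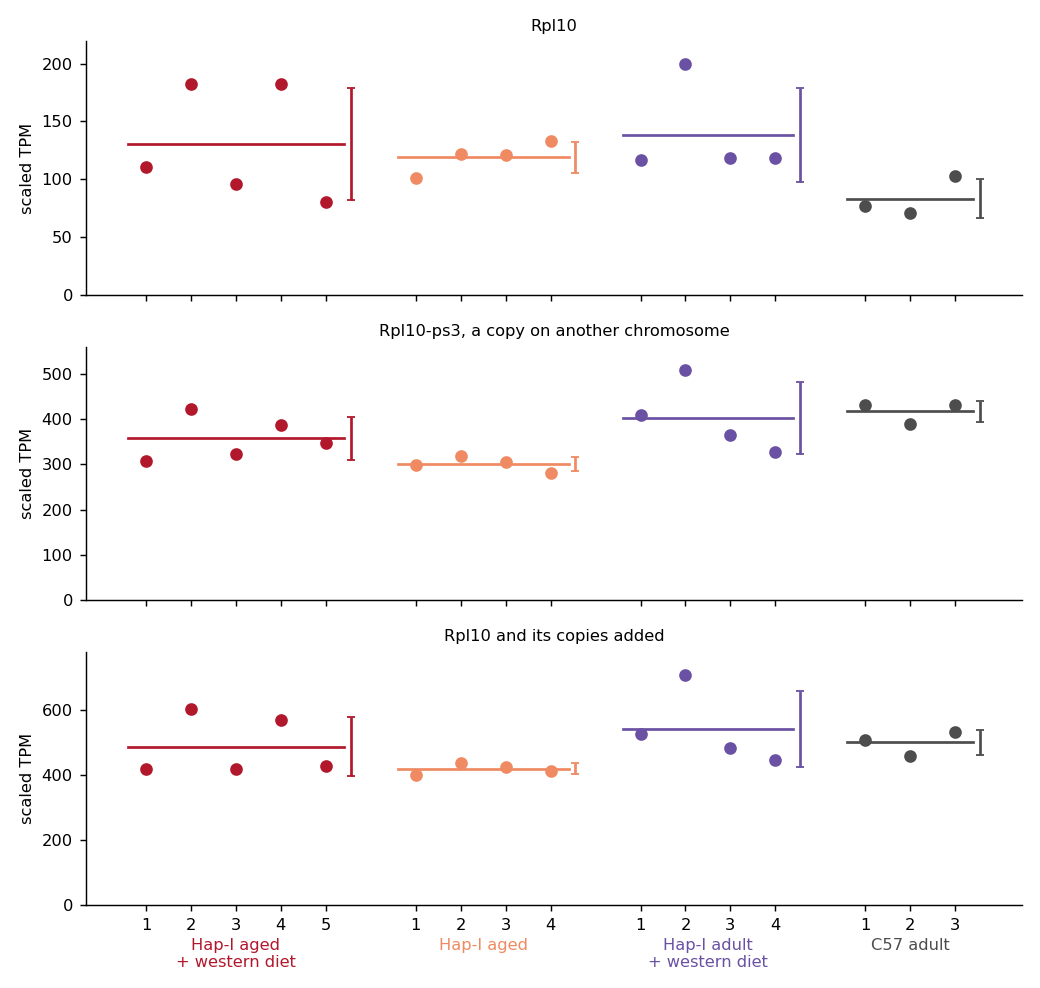
Scaled TPM of Rpl10 (top), of its copy Rpl10-ps3 (middle) and of Rpl10 with all its copies added (bottom) in each library; lines are group means and bars beside them SD (n = 5, 4, 4 and 3 from left to right). Rpl10 averages 83.1 in C57 hearts and 119.0 to 138.3 in the Hap-I groups, whereas the sums average 500.8 in C57 hearts and 419.6 to 541.3 in the Hap-I groups.

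Rps7, a small-subunit protein that also binds Mdm2, is likewise split with a copy. It had 152.6, 256.2, 164.0, 263.4 and 162.8 scaled TPM in aged Hap-I hearts on western diet and 170.6, 111.8 and 171.6 in C57 hearts. It held 70.5% ± 4.07 of the TPM of the gene and its copies in aged Hap-I hearts on western diet, 66.9% ± 2.82 in aged Hap-I hearts, 56.5% ± 17.1 in adult Hap-I hearts on western diet and 56.0% ± 6.23 in C57 hearts. In replicate 1 of the adult Hap-I group on western diet the share was 31.2%. With copies added, the difference between aged Hap-I hearts on western diet and C57 hearts was 0.05 (SE 0.20, adjusted p = 0.879 by limma), and on the member scale with copies added it was 0.23 (SE 0.11, adjusted p = 0.209 by limma). The log2 ratio of Rps7 with copies to the median of the other members ran from -0.019 to 0.54 in the 13 Hap-I hearts. The 0.54 was in the same replicate 1 of the adult Hap-I group. In the 3 C57 hearts the ratio ran from -0.23 to -0.056, so the ranges were close but did not overlap. How many other members separate in this way was not counted. The ratio of Rpl10 with copies overlapped (0.65 to 0.93 in Hap-I hearts and 0.76 to 0.80 in C57 hearts).

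Rpl3 lines the peptidyl transferase centre of the large subunit, and striated muscle also makes its paralog Rpl3l, which shares 0% of its 31-base words with any other gene. In these hearts both messages were at like levels. Rpl3 had 138.2, 157.9, 120.4, 157.0 and 120.4 scaled TPM in aged Hap-I hearts on western diet, 124.8, 126.0, 143.4 and 125.2 in aged Hap-I hearts, 175.8, 227.0, 141.2 and 127.8 in adult Hap-I hearts on western diet, and 160.0, 128.1 and 160.0 in C57 hearts. Rpl3l had 113.1, 144.5, 125.9, 139.5 and 134.4 scaled TPM in aged Hap-I hearts on western diet, 164.1, 185.9, 120.0 and 147.4 in aged Hap-I hearts, 135.2, 155.4, 166.7 and 119.4 in adult Hap-I hearts on western diet, and 151.5, 167.9 and 150.9 in C57 hearts. The ratio of Rpl3l to Rpl3 was 0.957 ± 0.12, 1.20 ± 0.27, 0.892 ± 0.22 and 1.07 ± 0.21 in the same order of groups (SD, n = 5, 4, 4 and 3), with overlap between all of them. Of 7 ribosomal protein paralogs listed 5 were kept, and limma called 0 of them, Rpl3l included, in each comparison. The largest difference of Rpl3l was -0.26 (95% interval -0.55 to 0.04, adjusted p = 0.196) in aged Hap-I hearts on western diet against C57 hearts.

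Among the members, spread differed by gene. Rplp1 varied most (SD of log2 scaled TPM 0.45, highest over lowest library 3.19), from 350.7 scaled TPM in replicate 4 to 1119 in replicate 2 of the adult Hap-I group on western diet; Rpl10 (0.43) and Rps24 (0.42) followed. Rpl4 (0.20), Rpl8 (0.22) and Rpl6 (0.23), all of the large subunit, varied least. The log2 ratio of Rplp1 to Rplp2, partners in the stalk, was 0.72 ± 0.19, 0.50 ± 0.06, 0.54 ± 0.35 and 0.13 ± 0.28 in aged Hap-I hearts on western diet, aged Hap-I hearts, adult Hap-I hearts on western diet and C57 hearts; C57 replicate 1 at 0.42 lay within the Hap-I range, and 75.1% of the 31-base words of Rplp1 occur elsewhere.

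The other cytosolic ribosomal protein genes followed the members. Of 36 listed, 34 were kept, and limma called 0 of 34 in each of the 7 comparisons; their medians were 0.12, -0.18, -0.31, -0.29, 0.04, -0.17 and -0.14 in the order given above. Among the genes outside the set whose log2 scaled TPM followed the members' median most closely over the 16 libraries were Rpl23a (Pearson r 0.979), Rpl31 (0.976), Rpl26 (0.973), Rpl35a (0.967), Rps21 (0.967), Mrpl30 (0.963), Rps23-ps1 (0.962) and Sec61b (0.959). Most of those named encode cytosolic ribosomal proteins, and they share library, depth and scaling with the members.

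Other genes of the translation machinery were called in the comparisons with C57 hearts, where 11.2% of all genes were called for aged Hap-I hearts and 21.9% for aged Hap-I hearts on western diet (1406 higher and 1092 lower). The counts below are read against these shares, and none is called particular to its list. Of 7 elongation factors, limma found 2 lower in aged Hap-I hearts than in C57 hearts and 1 lower in aged Hap-I hearts on western diet. Eef1a1, which brings aminoacyl-tRNA to the ribosome, averaged 409.2 ± 63.7 scaled TPM in aged Hap-I hearts and 577.6 ± 71.95 in C57 hearts (log2 fold change -0.50, adjusted p = 0.0359 by limma). Of 27 initiation factors, 2 rose and 7 fell in aged Hap-I hearts on western diet against C57 hearts. Eif5, which triggers GTP hydrolysis at the start codon, averaged 18.1 ± 5.94 against 5.88 ± 0.318 scaled TPM (1.40, adjusted p = 0.00586 by limma), and Eif6, which keeps free large subunits apart from small ones, 14.25 ± 0.979 against 22.3 ± 0.397 (-0.62, adjusted p = 0.00447).

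Of 11 other TOP messages, 5 fell and 0 rose in aged Hap-I hearts on western diet against C57 hearts, among them Naca, of the nascent chain complex (-0.67, adjusted p = 0.00645 by limma), and Cct4, a chaperonin subunit (-0.43, adjusted p = 0.00167). Larp1, the TOP-binding repressor, had 14.1, 12.0, 13.6, 10.3 and 11.8 scaled TPM in aged Hap-I hearts on western diet, 11.9, 11.2, 11.7 and 12.8 in aged Hap-I hearts, 9.67, 8.72, 9.89 and 11.4 in adult Hap-I hearts on western diet, and 8.22, 8.87 and 8.39 in C57 hearts. Both aged groups lay above all C57 libraries (0.49, adjusted p = 0.00393 by limma on western diet, and 0.44, adjusted p = 0.0163 without it). Of 16 mTORC1 and growth regulators of translation kept, Larp1 among them, 6 rose and 1 fell in aged Hap-I hearts on western diet against C57 hearts. Of 28 ribosome biogenesis genes, 7 fell and 0 rose in aged Hap-I hearts on western diet against C57 hearts, including Gar1 of the box H/ACA particles (-0.63, adjusted p = 0.0109). Of 73 mitochondrial ribosomal protein genes kept, 15 fell and 0 rose in that comparison, with a median of -0.18, close to the -0.19 of the cytosolic members. Of all 11415 genes, 1092 fell and 1406 rose there, together the 21.9% called. Whether the biogenesis or mitochondrial ribosomal genes differed from these shares was not tested. Of 31 short nuclear genes of oxidative phosphorylation, 10 fell and 0 rose, with a median of -0.45. Of 11 genes of RNA polymerase I and its factors, 0 were called there and 1, Polr1a, rose in aged Hap-I hearts against C57 hearts (0.54, adjusted p = 0.0294). In aged Hap-I hearts on western diet against C57 hearts, 4 of 6 atrial, 2 of 6 fibroblast and 2 of 5 smooth muscle markers kept also fell. Of 10 ventricular markers, Tnni3 (-0.74) and Tnnt2 (-0.39) fell and Ttn (1.53) rose. Their part in these differences was not tested.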

How the data were processed

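For the 16 heart libraries, the authors deposited gene-level TPM, a unit corrected for transcript length, in a single file. A Qiagen column kit and stranded TruSeq libraries of polyadenylated RNA were used, per the labels' protocols; the submitters' processing notes name kallisto, DESeq2 and GRCm38 without versions. TPM keeps no read depth, so depth is unknown and no counting interval is given. The 11415 genes that reached 1 TPM in 3 or more libraries were kept. TPM was divided by a median-of-ratios size factor, and log2(scaled TPM + 1) was fitted with limma 3.58.1 (R 4.3.3) with a variance trend and 4 group means over all 16 libraries; fold changes on this scale understate the change of low genes. Tests were two-sided, adjusted by Benjamini-Hochberg over all genes kept and called at an adjusted p under 0.05. The fit was tested on simulated data before use. Tables were made with Python 3.11.15, pandas 2.3.3, numpy 2.4.6 and Biopython 1.88. Promoters are RefSeq's; 36 of 44 members matched. Members, gene lists and markers were chosen with earlier results of these data known. Named were the called members, the extremes of each comparison and of level and spread, and members chosen for their roles. Alternatives were unscaled TPM, quantile normalization, other pseudocounts and filters, covariates for sex and atrial tissue, a length correction, fits on 2 groups and leaving out each library. Scaling to the members, adding copies, TPM per fixed sum of nuclear transcripts and leaving out 2 libraries were chosen after seeing the data. Some of the genes most like the members are not reported here.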

Additional observations from a re-analysis of the deposited data

Results flagged for a closer look

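In 4 of 111 groups of libraries checked, 1 library lay far from the rest of its group, where chance gives about 1 in 20 groups (5.55). Rpl10 had 199.4 scaled TPM in replicate 2 of the adult Hap-I group on western diet, and the others of that group had 116.8 to 118.8; the members as a whole were highest in the same library. In the aged Hap-I group, Rpl3 had 143.4 scaled TPM in replicate 3, and the others 124.8 to 126.0. Replicate 2 of that group stood apart for Rpl5 (7.856 scaled TPM, others 5.643 to 5.921) and for Rpsa (11.4 scaled TPM, others 9.633 to 9.871).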

How the results depend on the processing

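No member was called in the comparison of aged Hap-I hearts on western diet with aged Hap-I hearts, or of adult Hap-I hearts on western diet with C57 hearts, under any alternative run. In aged Hap-I hearts on western diet against adult Hap-I hearts on western diet, 0 to 1 members (0.254% to 4.98% of all genes) were called when each library was left out in turn, and 0 to 1 (0.333% to 6.32%) in aged Hap-I hearts against adult Hap-I hearts on western diet, where the members' median was 0.12 on unscaled TPM (0.27 for all genes). In aged Hap-I hearts against C57 hearts, leaving out a library gave 0 to 1 (3.33% to 12.9% of all genes), fitting only those groups 17 (21.4%), the member scale 1 (1.87%), and leaving out the 2 libraries at the ends of the length trend 1, Rps20 (12.3%). In aged Hap-I hearts on western diet against C57 hearts, unscaled TPM gave 3 (5.38% of all genes), quantile normalization 3 (19%), TPM per fixed sum of nuclear transcripts 1 (8.66%), the member scale 2 (4.52%) and leaving out a library 0 to 1 (11% to 23.7%). For the mean of the 3 Hap-I groups, 1 was called on unscaled TPM (3.36% of all genes), after quantile normalization (13.4%), with a filter at 5 TPM (18.3%), with a length correction (15.2%) and on the member scale (2.3%), 2 with TPM per fixed sum of nuclear transcripts (5.23%), and 0 to 1 leaving out a library (4.98% to 18.5%). On the member scale, leaving out a library gave 0 to 1 calls in aged Hap-I hearts (0.254% to 4.31% of all genes), 0 to 2 in aged Hap-I hearts on western diet (0.666% to 7.42%) and 0 to 2 in the mean of the 3 (0.166% to 4.55%), and adding copies gave 0 in each (2.27%, 4.96% and 2.87%). The cause was not tested. No paired analysis was possible because the labels give no replicate numbers that tie libraries across groups. Unknown depth limits what can be said of low members such as Rps25.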
